A study of Mus musculus with 4 samples.

Results

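Sites of CTCF and of RAD21 were compared in wild-type mouse gastruloids 96 h after aggregation. Gastruloids are clumps of cultured mouse embryonic stem cells that elongate and lay down a head-to-tail axis. Every peak of either wild-type list on chromosomes 1 to 19 was a member, which gave 46670 CTCF peaks and 57777 RAD21 peaks among 193113 peaks in the 5 lists of the series. Both lists came from ChIPmentation, chromatin immunoprecipitation in which Tn5 transposase adds sequencing adapters on the beads. There was 1 library for CTCF and 1 list for RAD21, so every value below is a description, and no test between samples was possible. The RAD21 list has no sample entry of its own: its protein, genotype and time are known only from the names of its peaks, and whether it shares gastruloids, culture or sequencing run with the CTCF library is unknown here. For the wild-type gastruloids the labels give no allele, agent or stem cell line, and the chromatin came from gastruloids pooled in 1 tube. As a point of comparison, CTCF and RAD21 lists of InsCBS5-10 gastruloids of the same age were used. Their genotype label reads as HoxB Del on 1 chromosome, and on the other Del(i9-13), a deletion of the i9-13 interval, together with Ins(CBS5-10), an insertion of CTCF binding sites 5 to 10. Fold enrichment is the authors' ratio of signal at a summit to local background, and it ranks peaks within a list only.

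CTCF is a zinc-finger protein that binds a long, oriented DNA motif. Cohesin is a ring of SMC1, SMC3, the closing subunit RAD21 and a STAG protein, and it extrudes loops of chromatin until it meets bound CTCF, so that both proteins pile up at the borders of chromosomal domains. Cohesin is loaded along active chromatin as well, and it also holds sister chromatids together after replication.

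Most CTCF peaks carried cohesin, while a large part of the RAD21 peaks lay away from any CTCF peak. Of the 46670 CTCF peaks, 32036 overlapped a RAD21 peak by 1 bp or more, which is 68.6% (95% exact Clopper-Pearson interval 68.2 to 69.1). In the other direction, 31605 of 57777 RAD21 peaks overlapped a CTCF peak, which is 54.7% (54.3 to 55.1). All intervals cover counting error only. The RAD21 peaks together covered 30.8 Mb, or 1.28% of the sequence between the first and last peak of each chromosome, and the CTCF peaks covered 14.9 Mb, or 0.62%. CTCF peaks with RAD21 had a median fold enrichment of 7.33 and a median width of 348 bp, against 3.35 and 204 bp for the 14634 without it. RAD21 peaks with CTCF had a median fold of 5.88 and a median width of 628 bp, against 3.34 and 339 bp for the 26172 without it.

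The sequence behind a shared site is shown for promoters, the 300 bp windows for which a reference sequence of the matching build was at hand. The windows run from 250 bases before to 50 bases after a gene start and come from RefSeq on GRCm38.p6, the assembly that mm10 names. An exact match to the CTCF core consensus, a motif of 14 letters searched on both strands, was present in 62 of 19551 windows (0.317%). The 5 matches shown first had the highest CTCF fold among those with both proteins that lay outside every annotated gene, and the last had CTCF without RAD21. Each is read 5′ to 3′ along the core, with 20 bases on each side and the core in capitals.
Lsm11: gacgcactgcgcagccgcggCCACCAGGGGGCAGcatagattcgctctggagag
Fam133b: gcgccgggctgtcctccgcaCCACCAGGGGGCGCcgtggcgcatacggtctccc
Nsfl1c: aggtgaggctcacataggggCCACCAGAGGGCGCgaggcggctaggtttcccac
Kif1b: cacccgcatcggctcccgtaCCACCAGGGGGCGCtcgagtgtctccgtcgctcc
Rint1: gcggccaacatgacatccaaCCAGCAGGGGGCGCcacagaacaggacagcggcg
C1qbp: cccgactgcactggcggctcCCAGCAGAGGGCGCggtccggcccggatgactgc

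These stretches lie at chr11:45945007-45945060 (plus strand, by Lsm11, which encodes a U7 snRNP protein), chr5:3543746-3543799 (plus, Fam133b), chr2:151494102-151494155 (plus, Nsfl1c, which encodes the p97 cofactor p47), chr4:149307891-149307944 (minus, Kif1b, a kinesin gene), chr5:23787607-23787660 (plus, Rint1, a gene of vesicle trafficking) and chr11:70983065-70983118 (minus, C1qbp, which encodes a mitochondrial matrix protein). At Lsm11 the CTCF fold was 19.9 and the RAD21 fold 9.23, with the RAD21 summit 47 bp from the CTCF summit toward the 3′ end of the core. The CTCF folds at Fam133b, Nsfl1c, Kif1b and Rint1 were 17.9, 17.6, 17.4 and 16.6. Their RAD21 folds were 8.30, 9.32, 6.95 and 4.06. The RAD21 summits lay 12, 10, 31 and 16 bp from the CTCF summits at these 4 sites, in each case toward the 3′ end. At C1qbp the CTCF fold was 14.5 and no RAD21 peak was called, although the core matched as exactly as at the other 5.

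CTCF peaks sat on these cores, and cohesin was called at most of them. Of the 62 windows with an exact core, 54 (87.1%, 76.1 to 94.3) overlapped a CTCF peak, and 51 of those 54 also overlapped a RAD21 peak. With up to 1 mismatch, 523 windows held a core, 343 of them (65.6%, 61.3 to 69.7) had a CTCF peak and 321 of these had RAD21. Among the 19028 windows without such a core, 7.25% (6.89 to 7.63) had a CTCF peak. RAD21 was also common there, at 1217 of these 1380 CTCF windows (88.2%, 86.4 to 89.8). With an exact core it was at 94.4% (84.6 to 98.8) of the CTCF windows. The CTCF summit lay a median of 16 bp from the middle of the core in the 317 peaks that contained one with up to 1 mismatch, and 282 of those summits were within 50 bp.

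Over all cores, the RAD21 summit showed no displacement to one side of CTCF that stood out from counting error. At the 295 shared peaks with a core of up to 1 mismatch, 134 RAD21 summits lay on the 3′ side of the CTCF summit, 156 on the 5′ side and 5 at the same base. The share on the 3′ side was 46.2% (40.4 to 52.1) of those displaced, and the median displacement was -5 bp along the core, with quartiles of -32 and 23 bp. In InsCBS5-10, 62 of 107 displaced summits lay on the 3′ side (57.9%, 48.0 to 67.4), with a median of 7 bp. Both intervals include an even split, and only cores within the promoter windows could be read.

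The strength of a CTCF peak went with the presence of cohesin over nearly the whole possible range. In the weakest of 10 strength classes (deciles of CTCF fold enrichment), 17.5% (16.4 to 18.6) of peaks had RAD21. The share was 39.4% in decile 3, 58.3% in decile 4, 74.2% in decile 5 and 93.0% in decile 7. In deciles 9 and 10 it was 98.4% (97.9 to 98.7) and 98.3% (97.9 to 98.7), and these intervals overlap. The steepest rise lay between decile 3, whose folds end at 3.87, and decile 5, whose folds end at 5.61. Strong peaks are also wider, with a median width of 178 bp in decile 1 and 435 bp in decile 10. When summits within 100 bp of each other were required in place of overlap, the shares ran from 10.9% in decile 1 to 95.1% in decile 10.

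RAD21 peaks showed the same dependence on their own strength, with a later rise. The share with CTCF was 17.8% (16.8 to 18.8) in the weakest RAD21 decile, 42.1% in decile 5, 72.4% in decile 7 and 99.5% (99.3 to 99.7) in the strongest. In the strongest RAD21 decile, 28 of 5777 peaks had no CTCF peak. The 3 weakest deciles reached 17.8%, 20.2% and 23.2%, so most weak RAD21 peaks lay outside any CTCF peak.

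**Figure D1:**
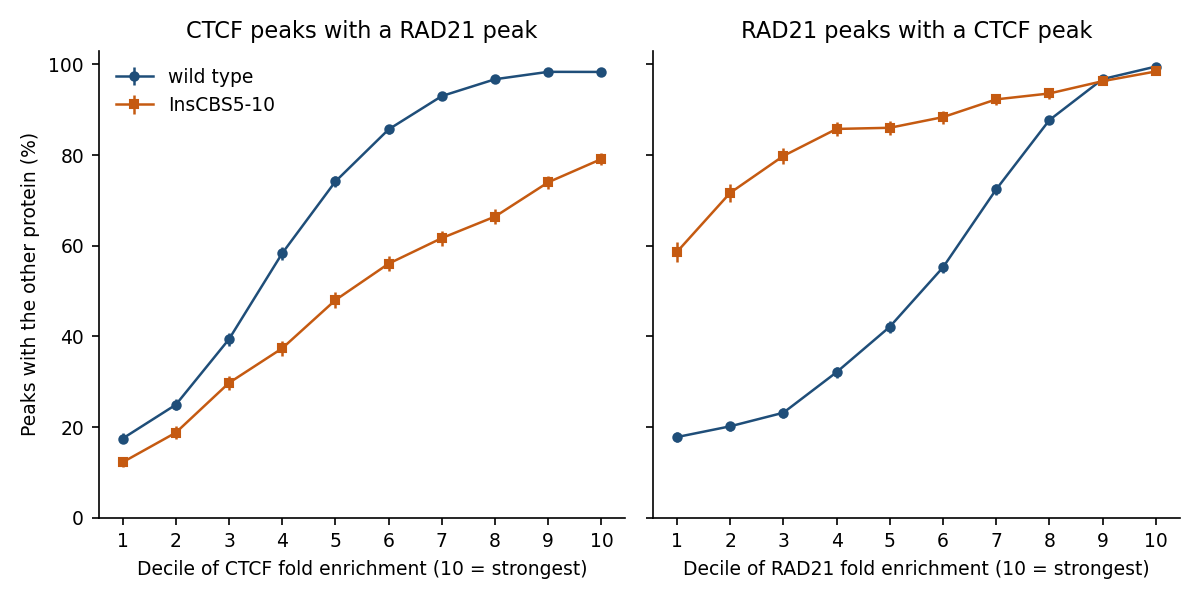
Share of CTCF peaks that overlap a RAD21 peak (left) and of RAD21 peaks that overlap a CTCF peak (right), in percent, by decile of the peak's own fold enrichment; circles are wild type, squares InsCBS5-10, and bars are 95% Clopper-Pearson intervals. Wild-type CTCF rises from 17.5% to 98.3% and InsCBS5-10 CTCF from 12.3% to 79.1%. RAD21 peaks of decile 1 have CTCF more often in InsCBS5-10 (58.6%, median RAD21 fold 3.30) than in wild type (17.8%, 2.57), in lists of unlike length. With lists cut to the 19163 strongest peaks, the share of all RAD21 peaks with CTCF is 72.4% in wild type and 65.9% in InsCBS5-10.

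Where both proteins were called, their strengths rose together. The median RAD21 fold at shared peaks was 3.47 (quartiles 2.86 and 4.34) in the weakest CTCF decile, 4.80 in decile 5 and 8.46 (6.50 and 10.2) in the strongest. Across the 32036 shared peaks the rank correlation of CTCF fold with RAD21 fold was 0.56 (Spearman's rho), given as a description, since these peaks share both libraries. In the strongest CTCF decile, 2142 of 4589 shared peaks (46.7%, 45.2 to 48.1) had a RAD21 peak of the strongest RAD21 decile, and 4.82% had one from the lower 5 deciles. In the weakest CTCF decile these shares were 1.23% and 72.8%. RAD21 peaks at shared sites also widened with CTCF strength, from a median of 387 bp to 773 bp.

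**Figure D2:**
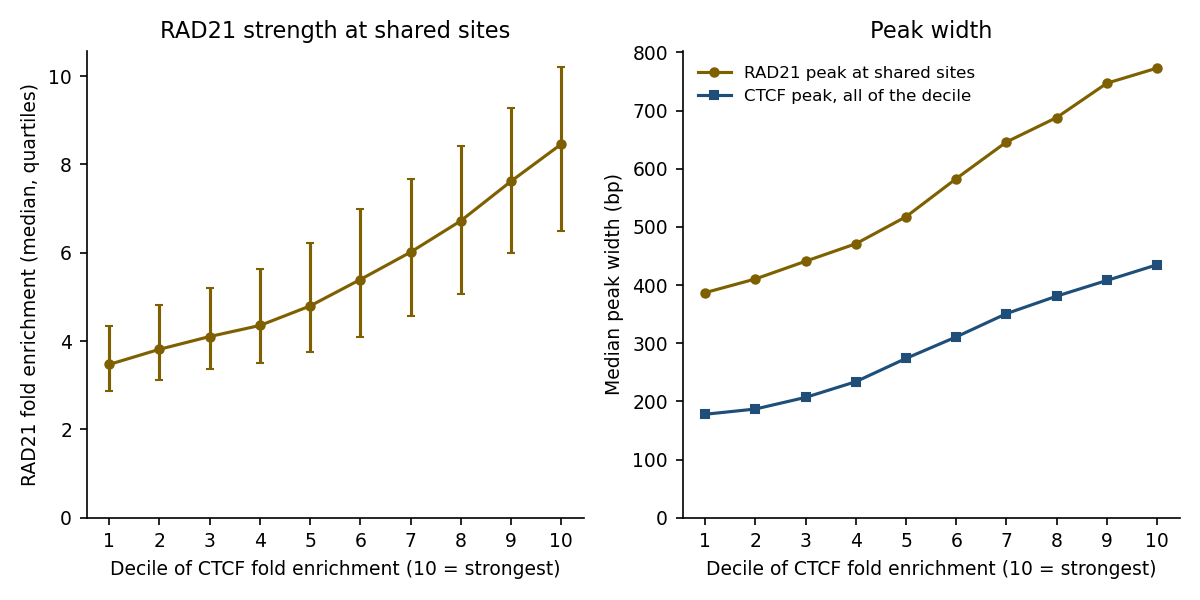
Median RAD21 fold enrichment at shared sites with quartiles as bars (left) and median widths in bp of the RAD21 peak at shared sites and of all CTCF peaks (right), by decile of CTCF fold enrichment in wild type. The RAD21 median rises from 3.47 to 8.46, and RAD21 peaks are wider than CTCF peaks in each decile.

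The 10 strongest shared CTCF peaks at promoters had RAD21 peaks of widely differing strength. The highest CTCF folds within 1 kb of a gene start were by Sh3glb1, which encodes the membrane-bending protein endophilin B1 (chr3:144720239-144720831, fold 25.1, RAD21 fold 7.12), and Vmn2r29, a vomeronasal receptor (chr7:7277927-7278699, 22.4 and 15.0). Vmn2r29 belongs to a large family of near-identical genes, so its reads could come from a relative. Nipsnap2, a mitochondrial protein, followed at 21.8 and 7.23, and Synm, the intermediate filament protein synemin, at 21.6 and 9.19. Rapgef1, an exchange factor for Rap1, had 21.6 and 9.31, and Agfg1 had 21.2 and 4.52. Hnrnpdl, an RNA-binding protein, had 21.0 for CTCF but 3.27 for RAD21, the lowest RAD21 fold of the 10. Exosc8, a subunit of the RNA exosome, had 20.7 and 4.27. Med4, a Mediator subunit, had 20.7 and 7.62, and Adprhl2, an ADP-ribose hydrolase, had 20.2 and 7.95. All 10 were in the strongest CTCF decile, yet their RAD21 folds ran from 3.27 to 15.0.

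The strongest RAD21 peaks with CTCF at promoters were, with 1 exception, by other genes. After Vmn2r29 came Bdh2, a hydroxybutyrate dehydrogenase (chr3:135281008-135281356, RAD21 fold 13.6, CTCF fold 9.49), Ankrd39 (13.1 and 14.9), and Dusp23, a protein phosphatase (13.1 and 16.0). Cdc20b had 13.0 and 11.1, and Hsd17b6, a steroid dehydrogenase, had 13.0 with a CTCF fold of 7.55. The remaining 4 were Radil, a Rap effector (12.8 and 17.5), Mlf2 (12.6 and 18.1), Aadat, an aminotransferase (12.5 and 10.0), and Ndufv1, a subunit of respiratory complex I (12.2 and 15.9). CTCF was in decile 7 by Hsd17b6, in decile 9 by Bdh2, Cdc20b and Aadat, and in decile 10 by the other 6.

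A strong CTCF peak without cohesin was rare and often narrow. Of the 4667 peaks of the strongest decile, 78 had no RAD21 peak, with a median width of 299.5 bp against 437 bp for the 4589 with RAD21. Peaks under 250 bp made up 39.7% (28.8 to 51.5) of the 78 and 0.479% (0.301 to 0.725) of the 4589. By promoters, the strongest without RAD21 were by Specc1 (CTCF fold 16.5), Psmd6, a proteasome subunit (15.5), Fam3c (15.5) and C1qbp (14.5). Tfeb, a regulator of lysosome genes, had 14.1, Csnk2a2, a catalytic subunit of casein kinase 2, had 13.8, and Rcc2 and Spsb2 had 13.2 and 12.7. These 8 peaks were 305 to 540 bp wide, so none was among the narrow ones.

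In the full lists, CTCF peaks by gene starts had RAD21 more often than those elsewhere, and RAD21 peaks by gene starts had CTCF less often. For CTCF this direction turned when only the strongest peaks of both lists were used. The distance was taken from a peak's summit to the nearest start of a protein-coding gene, on the chromosomes for which starts were used. Starts were at hand for 16043 of 21900 annotated protein-coding genes, so peaks counted as further away can lie by the start of another gene. Of the 2640 CTCF peaks within 1 kb of a start, 84.3% (82.9 to 85.7) had RAD21, against 67.6% (67.2 to 68.1) of the 41768 further away. With both lists cut to their 19163 strongest peaks by −log10 q, the length of the shortest list compared here, the shares were 54.2% (51.6 to 56.9) within 1 kb and 74.9% (74.3 to 75.6) beyond. In the full lists the share was 70.5% at 1 to 5 kb, 71.1% at 5 to 20 kb, 68.7% at 20 to 100 kb and 62.1% (61.2 to 63.0) beyond 100 kb. Among RAD21 peaks, 27.4% (26.4 to 28.3) of the 7999 within 1 kb of a start had CTCF, against 59.1% (58.7 to 59.5) of the 47178 further away. In the shortened lists these shares were 69.7% (66.9 to 72.4) and 72.6% (71.9 to 73.2), so the difference went from -31.7 to -2.86 points (-5.75 to -0.11). In the full lists their shares were 65.7% at 1 to 5 kb, 66.2% at 5 to 20 kb, 60.7% at 20 to 100 kb and 49.8% beyond 100 kb.

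**Figure D3:**
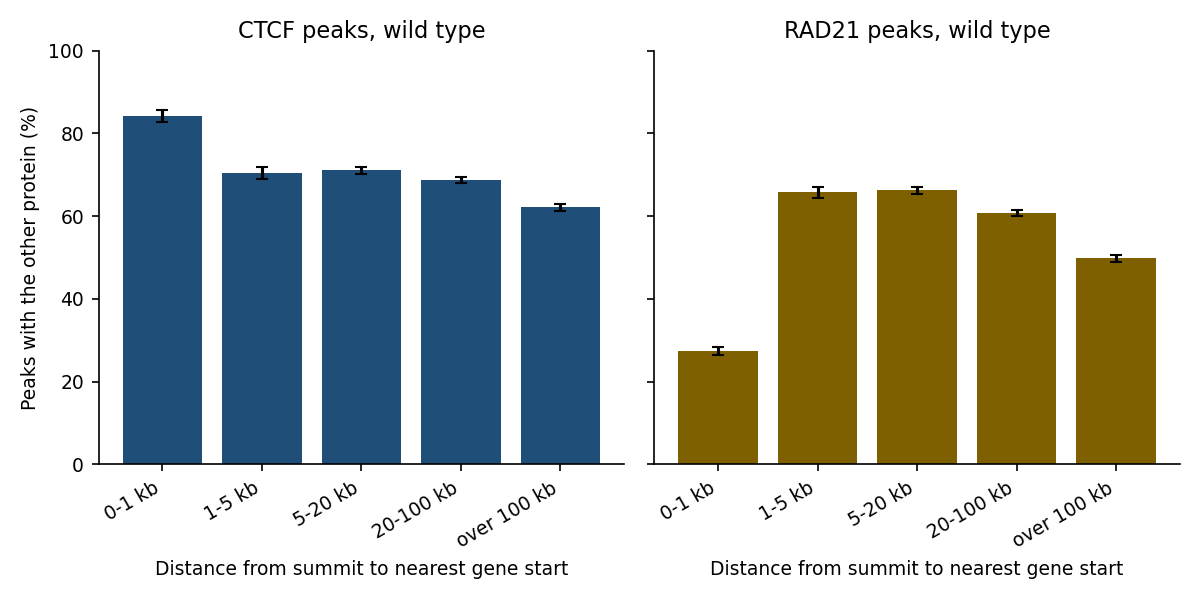
Share of wild-type CTCF peaks with RAD21 (left) and of RAD21 peaks with CTCF (right), in percent, by distance from the summit to the nearest start of a protein-coding gene; bars start at 0 and whiskers are 95% Clopper-Pearson intervals. Within 1 kb, CTCF peaks of the full lists have their highest share (84.3%) and RAD21 peaks their lowest (27.4%), while in lists cut to the 19163 strongest peaks the CTCF share is lower within 1 kb (54.2%) than beyond (74.9%).

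For CTCF, the promoter excess of the full lists was seen among weak peaks and not among the strongest. Among deciles 8 to 10, 97.3% (96.2 to 98.2) of peaks within 1 kb of a start had RAD21, close to the 97.6% to 98.2% of the other distance classes. In deciles 4 to 7 it was 81.8% (79.3 to 84.1) within 1 kb and 73.4% to 79.0% in the other classes. These 4 deciles did not go the same way. In decile 4 the share was 74.7% (68.8 to 80.0) within 1 kb and 49.7% to 59.5% in the other classes. In decile 5 it was 75.5% within 1 kb and 77.1% beyond 100 kb. In decile 7 it was 89.0% (84.3 to 92.7) within 1 kb, below the 91.5% to 95.1% of the other classes. Among deciles 1 to 3 the share was 60.2% (55.8 to 64.5) within 1 kb, 28.8% (26.0 to 31.7) at 1 to 5 kb and 22.7% (21.5 to 24.0) beyond 100 kb. The difference between CTCF peaks within 1 kb and those beyond was 16.7 percentage points (15.2 to 18.1) over all peaks. It was 1.70 (-0.18 to 3.49) once both lists were limited to −log10 q values of at least 5. With summits within 100 bp in place of overlap, the difference was 2.40 points (0.48 to 4.27), since 63.6% of CTCF summits within 1 kb of a start and 61.2% of those beyond had a RAD21 summit that near. Overlapping peaks of deciles 1 to 3 by a start had summits a median of 97 bp apart (82 to 110), against 53 bp (51 to 56) for those further away.

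For RAD21, the shortage of CTCF at promoters was seen among weaker peaks and not in the strongest decile. The share with CTCF within 1 kb of a start was 10.9% in RAD21 deciles 1 to 3, 29.0% in deciles 4 to 7 and 86.8% (84.3 to 89.1) in deciles 8 to 10. At 1 to 5 kb it was 29.8%, 73.6% and 98.0% in the same classes. In decile 10 alone, 182 of 183 RAD21 peaks within 1 kb of a start had CTCF (99.5%, 97.0 to 99.99), against 99.0% (98.3 to 99.5) beyond 100 kb. In decile 9 the share was 95.6% (92.0 to 97.9) within 1 kb, 97.3% to 99.3% in the classes from 1 to 100 kb and 94.4% (93.1 to 95.5) beyond 100 kb. Limited to −log10 q values of at least 5, the difference between peaks within 1 kb and beyond was -35.5 points, against -31.7 over all peaks. RAD21 peaks within 1 kb of a start were weaker than those elsewhere, with a median fold of 3.602 against 4.38.

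Promoter peaks of RAD21 without CTCF numbered 5811. They were 23.1% (22.6 to 23.7) of all RAD21 peaks without CTCF, whereas 7.28% (6.99 to 7.58) of RAD21 peaks with CTCF lay within 1 kb of a start. Their summits were close to the start, with a median of -61 bp, which is upstream of it, and 62.8% (61.5 to 64.0) lay within 200 bp. RAD21 summits with CTCF lay a median of -97 bp from the start, and 51.3% (49.2 to 53.4) were within 200 bp. The strongest RAD21 peaks without CTCF by a start were by Arrdc4, an arrestin-domain protein (chr7:68749012-68749685, fold 8.95), Senp2, a SUMO protease (7.99), Trim12c (7.95) and Ddx17, an RNA helicase (7.80). Ddost, a subunit of the oligosaccharyltransferase, had 7.54, Mterf2, a mitochondrial factor, 7.49, Mief1, a factor of mitochondrial fission, 7.40, and Zcchc17 7.31. The highest of these 8 folds is below the lowest RAD21 fold of the 10 strongest shared promoter peaks, 12.2.

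Base composition was alike in promoters with RAD21 alone and with both proteins, and core matches were not. Of the 19551 promoter windows, 1538 (7.87%) overlapped peaks of both proteins, 6085 (31.1%) RAD21 alone, 185 CTCF alone and 11743 neither. Median G and C content was 62.3% in windows with both, 61.7% with RAD21 alone, 63.7% with CTCF alone and 52.3% with neither. The median number of CpG dinucleotides was 22, 22, 21 and 5 in the same order. A core with up to 1 mismatch was in 20.9% (18.9 to 23.0) of windows with both proteins and 11.9% (7.60 to 17.4) with CTCF alone. It was in 1.58% (1.28 to 1.92) with RAD21 alone and 0.715% with neither, against 2.68% of all windows.

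Over 1 kb from the gene starts used, RAD21 peaks without CTCF mostly lay kilobases from any CTCF site. Some of them can lie by genes without a usable start. The median distance from their summit to the nearest CTCF summit was 16.7 kb (quartiles 6.99 and 39.2 kb) for the 19296 over 1 kb from a start, and 4.09% were within 1 kb of a CTCF summit. For those by a start the median was 11.4 kb, and 5.44% were within 1 kb.

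The relation of cohesin to local crowding of CTCF sites differed between weak and strong CTCF peaks. The nearest other CTCF summit lay a median of 11.5 kb away (quartiles 4.90 and 26.3 kb). Over all CTCF peaks, the share with RAD21 was 62.6% (60.6 to 64.6) with a neighbour under 1 kb away, 70.0% at 1 to 5 kb, 71.6% (70.7 to 72.5) at 5 to 10 kb, 70.5% at 10 to 20 kb, 67.9% at 20 to 50 kb, 64.4% at 50 to 100 kb and 56.0% (53.8 to 58.3) beyond 100 kb. Median fold enrichment moved with it: it was 4.26 under 1 kb, 6.41 at 5 to 10 kb and 4.12 beyond 100 kb. The difference between 5 to 10 kb and beyond 100 kb, the highest and lowest of these classes, was 15.6 points over all peaks and -0.39 points when the 10 deciles were given equal weight, an average over strength classes that did not all go the same way.

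In wild type, weak CTCF peaks had RAD21 more often where another CTCF site was near. Under 1 kb, the overlap can be with a RAD21 peak that also overlaps the neighbour, as in 417 of 1194 adjacent pairs of any strength. Among CTCF deciles 1 to 3, RAD21 was at 32.3% (29.4 to 35.2) of peaks with a neighbour under 1 kb away, 33.0% at 1 to 5 kb, 26.0% at 5 to 10 kb and 20.5% (17.9 to 23.4) beyond 100 kb. In decile 1 alone it was 25.6% (21.8 to 29.6) under 1 kb and 10.5% (7.18 to 14.8) beyond 100 kb. In deciles 4 to 7 it was 82.6% (79.9 to 85.0) under 1 kb, 75.9% (74.4 to 77.3) at 5 to 10 kb and 81.0% (77.7 to 83.9) beyond 100 kb. In deciles 8 to 10 each spacing class lay between 96.5% and 98.9%. The most isolated peaks of the strongest decile, those over 100 kb from another CTCF summit, had RAD21 in 71 of 77 cases (92.2%, 83.8 to 97.1). Counted by the number of other CTCF summits within 50 kb, the share was 61.4% with 0, 72.2% (71.1 to 73.2) with 3 and 50.3% (47.7 to 52.9) with 10 or more, where the median fold was 3.46. The InsCBS5-10 lists did not show the same pattern. Their CTCF deciles 1 to 3 had RAD21 at 16.7% under 1 kb, 28.6% at 1 to 5 kb, 17.7% at 5 to 10 kb and 18.1% beyond 100 kb. Over all CTCF peaks there, the share was 37.5% under 1 kb and 51.5% beyond 100 kb.

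**Figure D4:**
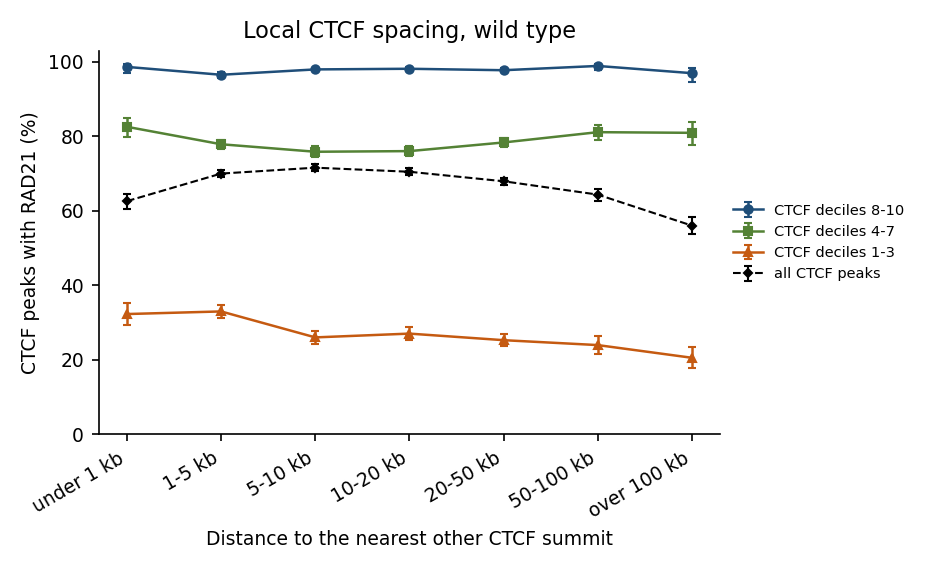
Share of wild-type CTCF peaks with RAD21, in percent, by distance to the nearest other CTCF summit, for 3 strength classes (solid lines) and all peaks (dashed); whiskers are 95% Clopper-Pearson intervals. The dashed line peaks at 71.6% for 5 to 10 kb and ends at 56.0%, deciles 8 to 10 stay between 96.5% and 98.9%, and deciles 1 to 3 go from 32.3% to 20.5%.

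Neighbouring CTCF peaks shared a RAD21 peak only at short range. Of 1194 pairs of adjacent CTCF peaks with summits under 1 kb apart, 589 (49.3%) had RAD21 at both, and in 417 pairs it was the same RAD21 peak. At 1 to 5 kb, 54 of 5401 pairs lay under 1 RAD21 peak, and beyond 5 kb 0 pairs did. The stronger member of a pair at 10 to 20 kb had RAD21 in 85.6% of cases and the weaker in 55.3%.

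Summits of both proteins nearly coincided at shared sites. The median distance between a RAD21 and a CTCF summit was 25 bp over the 32036 shared peaks (quartiles 11 and 50), with 75.2% (74.7 to 75.7) within 50 bp and 89.4% (89.0 to 89.7) within 100 bp. The median was 55 bp (53 to 58) in CTCF deciles 1 to 3 and 19 bp in deciles 8 to 10. In genome order, 49.5% (49.0 to 50.1) of displaced RAD21 summits lay to the right of CTCF. By a gene start the median was 39 bp (37 to 41), and it was 24 bp (24 to 25) elsewhere. The gap remained among deciles 8 to 10, at 28 bp (26 to 30) by a start and 18 bp (18 to 19) elsewhere.

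**Figure D5:**
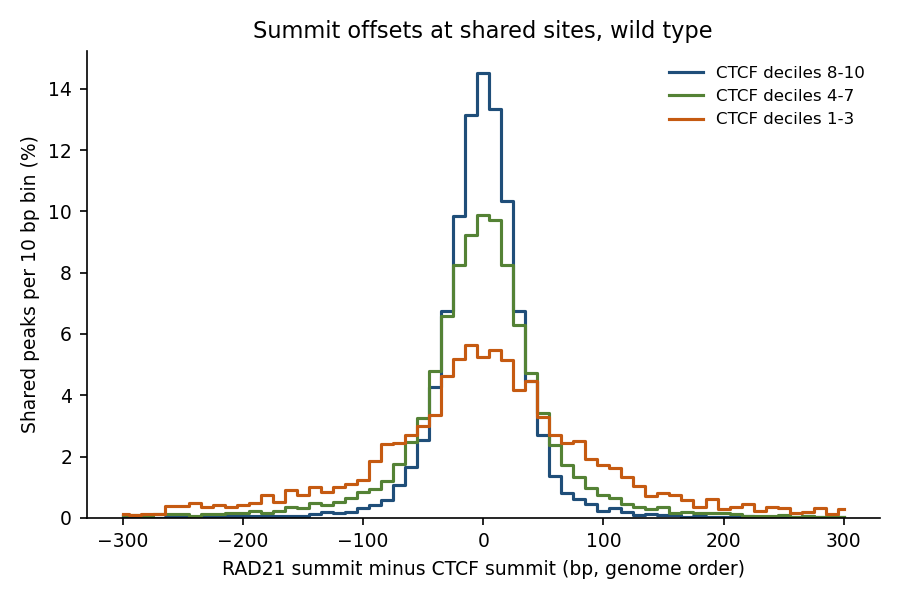
Offset in bp of the RAD21 summit from the CTCF summit at shared wild-type sites, as percent of shared peaks per 10 bp bin, for 3 classes of CTCF strength. All 3 curves centre near 0, and deciles 8 to 10 (median distance 19 bp) are narrower than deciles 1 to 3 (55 bp).

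Coupling in InsCBS5-10 had another balance, and with 1 list each the difference could not be tested. CTCF peaks there had RAD21 in 48.4% (47.8 to 48.9) of cases and RAD21 peaks had CTCF in 85.1% (84.6 to 85.6), from lists of 33698 and 19163 peaks. With all 4 lists cut to their 19163 strongest peaks by −log10 q, the shares were 73.1% and 72.4% in wild type and 65.8% and 65.9% in InsCBS5-10, so the difference for CTCF went from 20.3 to 7.32 points. For RAD21 peaks the difference turned, from -30.4 points in the full lists to 6.42 (5.50 to 7.34) at equal length. In the strongest CTCF decile of the full lists, RAD21 was at 98.3% of peaks in wild type and 79.1% (77.7 to 80.5) in InsCBS5-10. Near genes the full lists ran opposite ways. In wild type 84.3% of CTCF peaks within 1 kb of a start and 67.6% of those beyond had RAD21, against 34.5% (32.2 to 36.9) and 49.1% in InsCBS5-10. In the shortened lists both went the same way, with 54.2% within 1 kb and 74.9% beyond in wild type, and 44.1% (41.0 to 47.2) and 67.1% (66.4 to 67.8) in InsCBS5-10. RAD21 peaks within 1 kb of a start were 14.5% of the wild-type list and 3.69% of the InsCBS5-10 list, or 5.91% and 3.69% at equal length. The rank correlation of both folds at shared peaks was 0.56 in wild type and 0.31 in InsCBS5-10. List length moves with these values, and beyond the cut to equal length its part was not tested.

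Genes of 9 fixed lists were read for both proteins within 5 kb of a start. The lists hold regulators of the body axis but also pluripotency, CTCF and cohesin, imprinted and housekeeping genes. Over all 16043 protein-coding genes with a start, 37.5% had a CTCF peak, 64.1% a RAD21 peak, 30.2% a CTCF peak that overlapped RAD21, and 30.03% RAD21 without CTCF. Of the 142 genes in 9 lists 87 had a usable start, and of these 57 (65.5%) had CTCF, 78 (89.7%) RAD21 and 48 (55.2%) a shared site, while 23 had RAD21 without CTCF. Within 1 kb, a shared site was found for 18.4% (10.9 to 28.1) of the 87 genes and 14.2% (13.7 to 14.8) of all genes. These lists were chosen with earlier results of these data known, so their counts are a description. Folds given below are the strongest CTCF and the strongest RAD21 peak within 5 kb, which need not be the same site.

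Of 41 listed genes of the Hox clusters and Evx1 and Evx2, 21 were measured. No Hoxb gene was among them, and Hoxc4 was the only Hoxc gene, so the counts are mainly of HoxA and HoxD. Of the 21, 14 had a shared site, 5 had RAD21 without CTCF, 1 had CTCF without RAD21 and 1 had neither. Over all protein-coding genes, 30.2% had a shared site and 30.03% RAD21 without CTCF. Within 1 kb, 6 of the 21 had RAD21 and 3 a shared site (14.3%), against 48.2% and 14.2% of all genes. Hoxa genes pattern the body axis and limbs, and the highest CTCF folds were by Hoxa5 and Hoxa6 (14.5, RAD21 7.64) and Hoxa7 (13.8 and 9.88). Hoxa13, the most posterior Hoxa gene, had 8.88 and 9.78. In HoxD, Hoxd3 had 13.4 and 9.18, Hoxd12 and Hoxd13 both had 13.2 and 7.46, and Hoxd8 and Hoxd9 had 9.06 and 8.28. Neighbouring genes with equal folds of both proteins probably have the same strongest peaks within 5 kb, and their weaker peaks were not compared. The counts of Hox genes are therefore not counts of separate sites. Hoxd1, Hoxd4, Hoxa2, Hoxc4 and Evx1 had RAD21 without CTCF at folds of 4.47, 3.51, 2.38, 5.45 and 3.45, Hoxa9 had CTCF alone at 3.38, and Hoxa11 had neither.

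In the posterior growth zone, all 11 measured genes had RAD21 within 5 kb and 6 had a shared site. Over all protein-coding genes these shares were 64.1% and 30.2%. Within 1 kb, 4 of the 11 had RAD21 and 1 a shared site, against 48.2% and 14.2% of all genes. Tbx6, which commits cells to paraxial mesoderm, had a CTCF fold of 16.8 and a RAD21 fold of 4.74, Sox2 had 11.3 and 7.003, and Gdf11, a signal that ends trunk formation, had 9.56 and 9.45. Wnt3a had 7.77 and 5.16, and Cyp26a1, which degrades retinoic acid, had 6.90 and 3.49. T, Cdx2, Lin28a and Lin28b had RAD21 without CTCF, at 4.13, 4.06, 2.84 and 2.33. Among 11 somite and segmentation genes, 5 had a shared site, with Aldh1a2, which makes retinoic acid, at 9.02 and 8.03, Hes7, the segmentation clock repressor, at 8.41 and 3.36, and Dll3 at 7.28 and 6.62. Meox2, Mesp2, Ripply2 and Lfng had RAD21 without CTCF at 2.35 to 3.84. Within 1 kb, 8 of the 11 somite and segmentation genes had RAD21 and 2 had a shared site.

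Among 9 neural tube genes, 6 had a shared site, led by Foxa2 (16.8 and 7.03), Sox1 (15.2 and 5.69) and Neurog2 (13.4 and 4.44), and Pax6 had neither protein. At Nkx6-1 the CTCF peak (8.33) overlapped a RAD21 peak whose summit was over 5 kb from the start. Of 4 endoderm and heart genes, Foxa1 and Isl1 had shared sites, and Nkx2-5 and Hand2 had neither. Of 6 pluripotency genes, Klf4 (11.6 and 6.04) and Pou5f1 (3.82 and 4.29) had shared sites, Utf1 had RAD21 alone, and Nanog and Zfp42 had neither. Of 16 listed genes of the CTCF and cohesin machinery, 8 were measured. All 8 had RAD21, against 64.1% of all protein-coding genes, and 5 had a shared site. These were Pds5b (16.99 and 7.57), Stag1 (15.6 and 6.49), Smc3 (14.9 and 10.4), Ctcf itself (9.53 and 3.59) and Pds5a (6.94 and 5.80). Mau2, part of the cohesin loader, Wapl, which releases cohesin, and Cdca5, which protects it, had RAD21 without CTCF at 3.21, 2.83 and 3.86. Over all protein-coding genes, 30.2% had a shared site within 5 kb and 14.2% within 1 kb. Within 1 kb it was found for 1 of the 9 neural tube genes and 1 of the 4 endoderm and heart genes. It was found there for 0 of the 6 pluripotency genes and 5 of the 8 machinery genes.

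Imprinted genes are expressed from 1 parental copy, and CTCF is known to bind several of their control regions. All 10 measured had RAD21 within 5 kb, against 64.1% of all protein-coding genes, and 5 had a shared site, against 30.2%. These were Grb10 (CTCF fold 13.1, RAD21 fold 7.19), Plagl1 (12.2 and 11.6), Mest (10.4 and 6.91), Peg3 (9.69 and 3.002) and Snrpn (6.77 and 5.40). Igf2 and Gnas had both proteins within 5 kb but at separate sites. All 7 measured housekeeping genes had RAD21, and 3 had a shared site, with Rplp0, a ribosomal protein gene, at 10.7 and 5.34. Gapdh (12.1 and 3.12) and Ppia (14.3 and 3.07) had strong CTCF but a RAD21 peak only at a separate place. Within 1 kb, 6 of the 10 imprinted genes and all 7 housekeeping genes had RAD21, against 48.2% of all genes. A shared site was found there for 1 of the 10 and 2 of the 7, against 14.2% of all genes.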

How the data were processed

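Peak lists of CTCF and RAD21 ChIPmentation in gastruloids at 96 h were used as deposited, in narrowPeak form. Lists with a sample entry had 1 library per group and were grouped by sample title. The wild-type RAD21 list has no title and was placed by its peak names, and no label gives the number of libraries behind it. The submitters' processing notes name mm10, MACS2 2.2.7.1 and cutadapt 4.1. These notes belong to the samples, and none covers the wild-type RAD21 list. The aligner, read filters and control are unstated in those sources. Peaks were called on an edited mm10 with 2 versions of chromosome 11, per the peak names, and median folds on chromosome 11 were higher than elsewhere in both lists. The authors' deposited score is 10 times the −log10 q, and the deposited fold is a ratio to local background. Each list's own −log10 q, deposited by the authors beside −log10 p, starts at 1.30. The deposited summit position is counted from the peak's start. The files give no read counts, so depth is unknown and a missing peak is one not called.

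Rows with equal coordinates were merged to the summit of highest −log10 q (2971 CTCF and 11632 RAD21 rows), and chromosomes 1 to 19 were kept. Overlap was 1 bp or more. Deciles are of fold enrichment within a list. Starts of 16043 protein-coding genes came from RefSeq (GRCm38.p6), of 21900 in the annotation; 1 chromosome had no starts here, and chromosome 11 beyond Hoxb13 was left out because its positions are those of the edited sequence. Symbols beginning with Gm or ending in Rik were not named. Genes named are the 10 nearest the shared promoter peaks of highest CTCF fold, the 10 of highest RAD21 fold, the 8 strongest of each protein alone, and members of the fixed lists. Members and lists were chosen with earlier results of these data known. Overlap code was tested on simulated data. Analyses used Python 3.11.15, pandas 2.3.3, scipy 1.17.1 and statsmodels 0.14.6 (Newcombe intervals for differences of shares).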

Additional observations from a re-analysis of the deposited data

How the results depend on the processing

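The sign of a difference changed in 4 of 40 alternatives, for the CTCF promoter difference, local spacing and the RAD21 side of the comparison with InsCBS5-10. Under the q limit, the intervals of the CTCF promoter difference and of the spacing difference included 0. Most sizes moved beyond counting error. The share of CTCF peaks with RAD21 was 67.7% with overlap of at least 50% of the shorter peak, 61.3% with summits within 100 bp, 61.4% over every summit row, 75.2% at −log10 q values of at least 5 in both lists, 85.1% with that limit for CTCF alone, 64.9% with lists of equal length and 84.5% for CTCF peaks of 250 bp or more. The share of RAD21 peaks with CTCF was 54.0%, 49.5%, 43.9%, 70.3%, 74.9993% (limit for RAD21 alone) and 63.9% under the same first 6 settings, 54.2% without chromosome 11 and 59.1% for peaks over 1 kb from a start. The difference between the strongest and weakest CTCF decile was 80.8 points, 84.0 with deciles by −log10 q and 62.1 with the q limit in both lists. The promoter difference of CTCF was 8.58 points with a 5 kb limit, 11.3 with deciles weighted equally, 1.70 with the q limit, 2.40 with summits within 100 bp and 14.8 with gene ends in place of starts, and it reversed to -20.7 (-23.4 to -18.0) with lists cut to the 19163 strongest peaks; the cause was not tested. That of RAD21 was -17.6, -14.3, -35.5, -33.0, -24.4 and -2.86 points in the same order. The spacing difference was 8.17 points for 1 or more against 0 summits within 50 kb. It was -0.39 with deciles weighted equally, for which no interval was computed. Among CTCF peaks past the q limit it was -0.50 (-2.16 to 1.26), so the difference was lost and a turn of direction was not shown. Strength moves with spacing, and the cause was not tested. The median summit distance was 22 bp with the q limit, 24 bp over every summit of both intervals and 24 bp with 1 summit in both. The difference from InsCBS5-10 was 7.32 points for CTCF peaks with lists cut to equal length, and for RAD21 peaks it reversed from -30.4 to 6.42; the cause was not tested. Shared sites within 1 kb were found for 18.4% (10.9 to 28.1) of the fixed-list genes, against 55.2% within 5 kb. Over all 16043 genes the shares were 14.2% (13.7 to 14.8) within 1 kb and 30.2% within 5 kb. The alternatives by gene ends, by summits near starts, by CTCF width, by RAD21 peaks away from starts and, for the promoter differences and the RAD21 side of the genotype comparison, by shortened lists were chosen after seeing the data. Read depth is unknown, so what it limits could not be measured. No paired analysis was possible because the result comes from no test.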

Other observations

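A few RAD21 peaks spanned several CTCF peaks. Of the 57777 RAD21 peaks, 31135 overlapped 1 CTCF peak, 464 overlapped 2 and 6 overlapped 3. Their median width was 623 bp with 1 CTCF peak, 1264.5 bp with 2 and 1904 bp with 3, against 339 bp with none. More than 1 summit was called in 17.7% of RAD21 peaks with 1 CTCF peak and in 86.6% of those with 2. The strongest of the 6 lay at chr10:39170231-39172168 (RAD21 fold 7.58) over CTCF peaks with folds of 7.104, 8.05 and 6.43, whose summits were 908 and 630 bp apart. At chr19:5567200-5569181 (5.18) the CTCF folds were 6.64, 6.08 and 6.65, with summits 762 and 622 bp apart. At chr6:70804522-70806391 (5.16) they were 5.67, 5.54 and 6.08, with summits 665 and 662 bp apart. The CTCF peaks at these last 2 sites were of nearly equal strength, and these sites were chosen knowing their values.

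Shares varied moderately between chromosomes. The share of CTCF peaks with RAD21 ran from 61.7% (59.6 to 63.7) on chromosome 12 to 72.8% (71.1 to 74.5) on chromosome 6. The share of RAD21 peaks with CTCF ran from 48.7% (46.8 to 50.6) on chromosome 13 to 64.9% (63.0 to 66.8) on chromosome 11, where the median fold was higher than elsewhere (6.77 against 5.53 for CTCF and 4.89 against 4.15 for RAD21) and the edited genome has 2 versions.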
